A study of Homo sapiens with 12 samples.

Results

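HT-29 cells, an established human colon adenocarcinoma line, were treated for 8 h with TSZ+Nec-1s and set against cells given DMSO, and the expression of all measured genes was compared between these conditions. A gene was taken in when its normalised read count, averaged over both groups, was at least 10, which held for 11727 of the 26485 genes listed. Of the genes left out, 9864 were listed at 0 in both groups and 4894 were above 0 but under 10. LINC00926 lay just inside this limit at 10.04 normalised reads and OVGP1 just outside it at 9.99.

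The TSZ+Nec-1s group received TNFα at 10 ng/ml, the Smac mimetic SM-164 at 50 nM, the caspase inhibitor zVAD at 20 μM and the RIPK1 kinase inhibitor Nec-1s at 10 μM. The TSZ group received the same mixture without Nec-1s, the TNFα group received TNFα alone at 10 ng/ml, and the DMSO group received none of these agents. PolyA RNA was sequenced in 12 libraries, 3 per group, of which 6 make up the main comparison. TSZ is a standard way to trigger necroptosis, and TSZ+Nec-1s asks which transcripts still respond once the kinase activity of RIPK1 is blocked. The TSZ+Nec-1s and DMSO groups differ by 4 agents, whose parts in a difference cannot be told apart, and cells given SM-164, zVAD or Nec-1s alone were not analysed here. All groups are 1 cell line, and no label tells whether replicate libraries stem from different cultures, which means that the p-values measure the spread between these libraries and that it may be technical.

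TNFα binds its receptor TNFR1, which recruits RIPK1, TRAF2 and the IAP ubiquitin ligases cIAP1 and cIAP2. The ubiquitin chains built there activate the IKK and MAP kinases, which release NF-κB from its IκB inhibitors and activate AP-1. A Smac mimetic makes the cells degrade the cIAPs, which removes the brake on the kinase NIK and opens the non-canonical NF-κB pathway of NFKB2 and RELB, and it also allows RIPK1 to form death complexes. When caspases are blocked, RIPK1 kinase activity passes the death signal to RIPK3 and MLKL, and Nec-1s stops this step while the role of RIPK1 as a scaffold does not need its kinase. In colon epithelium NF-κB drives chemokines that call in neutrophils and lymphocytes, adhesion molecules, and its own inhibitors.

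Whole reads per library were recovered from the authors' group means, because each mean adds up 3 whole numbers of reads, each scaled by the factor of its library. The libraries are called a, b and c within each group in order of the step size found, and these letters pair no libraries across groups. Estimated total reads were 9945254 to 12729494 for TSZ+Nec-1s, 10808118 to 11304444 for TSZ, 9968712 to 10540994 for TNFα and 8792866 to 10664384 for DMSO. Of the 11727 genes, 11719 could be tested, and 8 very abundant ones could not be solved (KRT8, ACTB, HSPA8, GAPDH, EEF1A1, KRT18, PKM and ACTG1). A further 19 genes, CXCL8 and SQSTM1 among them, were solved with TSZ+Nec-1s and DMSO but not in every other group. Each was fitted on the libraries of the groups in which it was solved. These were 9 libraries where 1 group was missing and 6 where TSZ and TNFα both were. Levels below are normalised reads per library, and every log2 fold change is given with its standard error.

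DMSO library b stood apart from the other DMSO libraries. Its deviation from its group mean followed the GC content of the transcript with a Spearman rho of -0.80 across 11527 genes, against 0.53 for DMSO library a and 0.77 for DMSO library c, whereas rho was -0.14, 0.23 and -0.09 for the TSZ+Nec-1s libraries. TSZ library a (-0.74, against 0.54 and 0.58 for the other TSZ libraries) and TNFα library a (-0.60, against 0.47 and 0.21) also stood apart in their groups. Genes are not independent replicates, so these values are descriptions. Across 11522 genes the log2 fold change of TSZ+Nec-1s over DMSO had a rho of -0.30 with GC content, and -0.53 without DMSO library b. Counts of the gene lists are given again without that library or after each library's GC trend was removed where this moved them by over 1.5 times or added calls in a direction that had none, and the part of GC content in single results was not tested.

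Of 14 markers of colon epithelium 9 were measured. EPCAM was at 4390, 4242 and 4087 normalised reads with TSZ+Nec-1s, against 3395, 4617 and 3221 with DMSO, and KRT8 averaged 78159 and 77517 by the authors' means. Of the 7 tested KRT20 was higher and VIL1 lower with TSZ+Nec-1s, and 2 were higher and 2 lower without DMSO library b and 2 higher and 1 lower after GC removal. CDX1 was at 0 in both groups and CDX2, CDH17, GPA33 and PHGR1 were under 10. Of 15 leukocyte markers, 7 were at 0 in both groups, PTPRC and CD3E among them, and 4 were measured. ITGAM, an integrin chain of myeloid cells, rose from 9.33 with DMSO to 218 with TSZ+Nec-1s by the authors' means. It was measured only through its level with TSZ+Nec-1s, so it could hardly have come out lower. CD14, a coreceptor of bacterial lipopolysaccharide, fell. The summed level of the 15 listed was 15373 to 16160 with TSZ+Nec-1s and 15037 to 15356 with DMSO, nearly all of it LYZ. Of 14 fibroblast and endothelial markers 3 were measured and none passed the threshold, though COL1A1 and COL1A2, the second chosen after its values were seen, passed as lower without DMSO library c (adjusted p = 0.0236 and 0.0373). The summed level of all 14 listed was 55.4 to 72.1 with TSZ+Nec-1s and 58.8 to 223 with DMSO. Since the RNA came from bulk cultures, fewer cells of a kind and less RNA per cell cannot be told apart.

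With TSZ+Nec-1s, 829 genes were higher than with DMSO and 679 were lower, 7.07% and 5.79% of the 11719 genes tested (limma with precision weights, Benjamini-Hochberg adjusted p under 0.05). The rises were the larger changes. Among the genes that rose, 345 were up more than 2-fold, 113 more than 4-fold and 49 more than 8-fold, whereas 137 of the genes that fell were down more than 2-fold and 11 more than 4-fold. The median log2 fold change was 0.86 over the genes that rose and -0.66 over those that fell, against 0.01 over all genes tested. All 3 TSZ+Nec-1s libraries lay above all 3 DMSO libraries in 1647 of the genes tested (14.1%) and below them in 1792 (15.3%). Scaled to total reads, 714 genes rose and 1290 fell and the median over all genes moved to -0.07, so the balance between rises and falls depends on the scaling. There were 130 genes with a mean under 10 with DMSO that entered through their level with TSZ+Nec-1s, of which 62 rose, and 152 in the opposite situation, of which 26 fell, so these could hardly differ in the other direction. Leaving out DMSO library b brought the counts to 2215 higher and 1696 lower. Without DMSO library a they were 548 and 320 and without DMSO library c 673 and 443, and without TSZ+Nec-1s library a, b or c they were 541 and 308, 558 and 332, and 569 and 370.

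**Figure D1:**
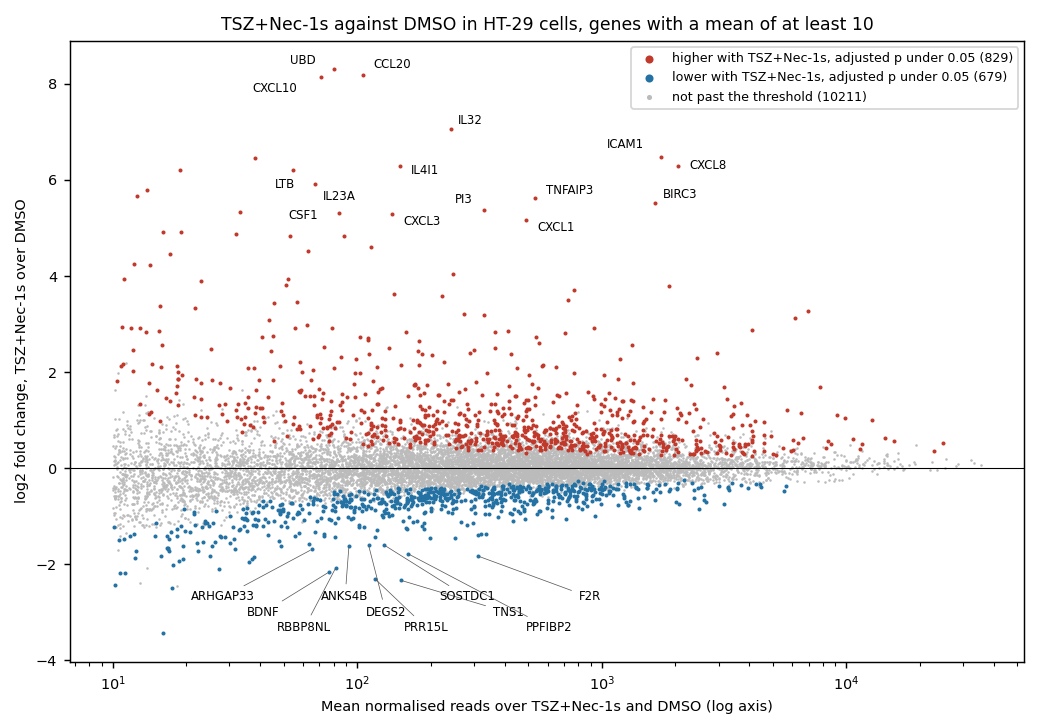
Log2 fold change of TSZ+Nec-1s over DMSO (vertical axis) against the mean normalised reads over both groups (horizontal, log axis), 1 point per gene tested. Red points are the 829 genes that rose and blue points the 679 that fell, and the 15 rises and 10 falls of largest size with a mean of at least 50 are named. Fitted values of genes with no DMSO reads, such as UBD and CXCL10, depend on the small prior count that the fit adds and are no measured fold.

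The promoters of the genes that changed were searched for the binding motif of NF-κB. The sequence GGANNTTCC was searched on both strands (GGAANNTCC on the other) in the RefSeq promoter windows of GRCh38.p14, which span 250 bases before to 50 bases after the start. It was found in 28.6% of the genes up more than 4-fold that have a window (26 of 91), in 10.3% of all genes that rose (67 of 652), in 3.29% of the genes that fell (17 of 516), in 4.60% of all genes tested (431 of 9366) and in 4.59% of all 27305 promoters. Of the 15 largest rises 13 have a window and 8 of these hold a match, whereas UBD, CCL20, IL4I1, IL23A and BIRC3 hold none. A match is a description of the letters in this window and not evidence of binding. The 250 bases upstream of the start are printed for 6 rises that hold a match, chosen for it and for their roles in the groups described below, namely adhesion (ICAM1), neutrophil chemokines (CXCL8, CXCL1), a lymphocyte chemokine (CXCL10) and the feedback inhibitors IκBα (NFKBIA) and A20 (TNFAIP3). They read 5′ to 3′ on the strand of the gene, with the matches in capitals, and lie at chr19:10270870-10271119 (plus strand), chr4:73740319-73740568 (plus), chr4:73869143-73869392 (plus), chr4:76023498-76023747 (minus), chr14:35404750-35404999 (minus) and chr6:137867009-137867258 (plus).
ICAM1: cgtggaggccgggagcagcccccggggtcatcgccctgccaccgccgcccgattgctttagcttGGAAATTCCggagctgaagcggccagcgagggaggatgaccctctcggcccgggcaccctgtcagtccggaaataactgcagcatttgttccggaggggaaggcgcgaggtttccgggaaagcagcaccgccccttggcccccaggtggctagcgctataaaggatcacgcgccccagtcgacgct
CXCL8: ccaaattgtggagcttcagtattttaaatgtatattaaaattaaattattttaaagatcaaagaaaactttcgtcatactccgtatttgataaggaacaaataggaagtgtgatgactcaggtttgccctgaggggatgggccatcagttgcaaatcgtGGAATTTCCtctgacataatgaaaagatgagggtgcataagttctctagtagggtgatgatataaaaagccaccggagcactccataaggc
CXCL1: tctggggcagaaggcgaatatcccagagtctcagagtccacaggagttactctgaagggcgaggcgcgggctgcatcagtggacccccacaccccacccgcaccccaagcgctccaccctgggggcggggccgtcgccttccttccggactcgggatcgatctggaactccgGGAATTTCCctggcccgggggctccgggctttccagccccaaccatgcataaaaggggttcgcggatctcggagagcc
CXCL10: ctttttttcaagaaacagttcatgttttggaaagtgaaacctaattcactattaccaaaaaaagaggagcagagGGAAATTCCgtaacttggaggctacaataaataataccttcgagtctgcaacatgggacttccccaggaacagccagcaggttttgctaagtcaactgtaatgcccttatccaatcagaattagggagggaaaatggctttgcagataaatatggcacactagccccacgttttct
NFKBIA: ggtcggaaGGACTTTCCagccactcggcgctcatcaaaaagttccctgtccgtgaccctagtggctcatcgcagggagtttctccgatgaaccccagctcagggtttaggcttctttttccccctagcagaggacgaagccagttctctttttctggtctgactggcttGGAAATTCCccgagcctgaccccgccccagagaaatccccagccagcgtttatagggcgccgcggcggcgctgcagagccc
TNFAIP3: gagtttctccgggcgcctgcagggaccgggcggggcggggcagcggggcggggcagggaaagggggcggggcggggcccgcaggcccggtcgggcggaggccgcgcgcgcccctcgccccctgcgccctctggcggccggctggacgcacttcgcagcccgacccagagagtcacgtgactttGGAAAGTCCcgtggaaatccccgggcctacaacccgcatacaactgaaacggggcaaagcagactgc
The match begins 91 bases before the start in CXCL8, 78 in CXCL1, 67 in TNFAIP3, 176 in CXCL10 and 186 in ICAM1, and NFKBIA holds 2 matches, the farther one 242 bases before the start.

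Of the 12 CXC chemokines listed, 4 stayed under 10 and all 8 measured rose. CXCL8, the main neutrophil attractant of human epithelium, was at 4074, 4018 and 4070 normalised reads with TSZ+Nec-1s, against 45, 75.7 and 39.5 with DMSO, a log2 fold change of 6.30 ± 0.19 (adjusted p = 5.6e-09). CXCL1, a ligand of the same neutrophil receptor CXCR2, was at 999.5, 969 and 901 with TSZ+Nec-1s, against 27, 24.2 and 27.8 with DMSO (5.16 ± 0.18, adjusted p = 1.3e-09). For both genes every TSZ+Nec-1s library was above every DMSO library, which held for 14.1% of all genes tested. The TSZ+Nec-1s libraries lay within a narrow band. CXCL3 (5.30) and CXCL2 (4.52) rose by similar log2 amounts, and since CXCL1, CXCL2 and CXCL3 are close paralogs, their counts may share reads. CXCL10, which attracts T cells through CXCR3, was at 132, 143 and 149.9 with TSZ+Nec-1s and had no reads in any DMSO library, at least 142-fold higher against a floor of 3 counts over the DMSO group. Its neighbour CXCL11, chosen after its values were seen, had 108 reads with TSZ+Nec-1s and 2 with DMSO, a ratio of 47.5 with a 95% counting interval of 12.8 to 397. CXCL10 and CXCL11 were measured only through their level with TSZ+Nec-1s, so they could hardly have come out lower.

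Of the CC and CX3C chemokines, 13 of the 17 listed stayed under 10 and 3 of the 4 measured rose. CCL20, the attractant of CCR6-positive dendritic and Th17 cells in the gut, had 722 reads with TSZ+Nec-1s and 1 with DMSO, a ratio of 635 with a 95% counting interval of 114 to 25099. Its normalised level was 228, 218 and 184 with TSZ+Nec-1s, against 0, 0 and 1.07 with DMSO. CCL22, which attracts CCR4-positive T cells, had no DMSO reads and was at 28.5, 32.1 and 22.1 with TSZ+Nec-1s, at least 27.6-fold higher against the same floor. CX3CL1, the membrane-bound chemokine fractalkine, was at 102, 102 and 89.5 with TSZ+Nec-1s, against 5.4, 5.26 and 7.48 with DMSO (3.93 ± 0.34, adjusted p = 5.3e-06). All 3 were under 10 normalised reads in DMSO cells, so their folds rest on few DMSO reads and they could hardly have come out lower. The fourth measured member, CCL28, was at 19.8, 33 and 24.1 with TSZ+Nec-1s, against 35.1, 46.2 and 38.5 with DMSO (adjusted p = 0.16).

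Cytokines and growth factors of myeloid cells rose beside the chemokines, 5 of the 8 measured interleukins and colony-stimulating factors. Of the 19 listed, 11 stayed under 10. IL32, CSF1, IL23A and CSF2 were measured only through their level with TSZ+Nec-1s, so they could hardly have come out lower. The same holds for IL4I1 and IL17C below. IL32, an intracellular proinflammatory cytokine found in primates, was at 454, 471 and 514 with TSZ+Nec-1s, against 1.8, 5.26 and 3.21 with DMSO (7.06 ± 0.39, adjusted p = 9.0e-08). CSF1, the macrophage growth factor, was at 185, 151 and 156 with TSZ+Nec-1s, against 3.6, 3.15 and 4.28 with DMSO (5.31 ± 0.38, adjusted p = 8.1e-07). IL23A, the subunit particular to IL-23, was at 118, 144 and 134 with TSZ+Nec-1s, against 0, 4.2 and 4.28 with DMSO (5.92 ± 0.64, adjusted p = 3.5e-05). In all 3 genes every TSZ+Nec-1s library was far above every DMSO library. The libraries were in this order, at any distance, in 14.1% of all genes tested. CSF2, which encodes GM-CSF, was lower in level at 39.5, 35.6 and 23.1 with TSZ+Nec-1s, against 3.6, 1.05 and 0 with DMSO, and LIF rose by 1.01 on the log2 scale (adjusted p = 0.00048). IL4I1, a secreted amino acid oxidase induced by NF-κB in antigen-presenting cells, was at 293, 324 and 269.6 with TSZ+Nec-1s, against 1.8, 3.15 and 6.41 with DMSO (6.29 ± 0.42, adjusted p = 4.1e-07). IL17C, an epithelial cytokine chosen after its values were seen, was at 32.4, 20.8 and 22.1 with TSZ+Nec-1s and had no DMSO reads, at least 25.1-fold higher. IL18, likewise chosen after its values were seen, was among the measured cytokines that did not pass, at 28.5, 19.1 and 23.1 with TSZ+Nec-1s and 17.1, 22.1 and 24.6 with DMSO (adjusted p = 0.82).

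Ligands and receptors of the TNF superfamily were induced in part, with 4 of 6 measured ligands and 7 of 12 measured receptors higher and none lower. The TNF transcript itself had 255 reads with TSZ+Nec-1s and 2 with DMSO, a ratio of 112 with a 95% counting interval of 30.7 to 930. LTB, which forms lymphotoxin with LTA, was at 109.9, 119.8 and 94.6 with TSZ+Nec-1s, against 1.8, 0 and 2.14 with DMSO (6.21 ± 0.55, adjusted p = 6.6e-06). TNF and LTB were measured only through their level with TSZ+Nec-1s, so they could hardly have come out lower. TNFSF10, which encodes the death ligand TRAIL, was at 216, 193 and 176 with TSZ+Nec-1s, against 49.5, 47.3 and 38.5 with DMSO (2.10 ± 0.25, adjusted p = 8.1e-05). The TRAIL receptor TNFRSF10B rose as well, by 1.30 on the log2 scale (adjusted p = 4.5e-06), as did the death receptor gene TNFRSF21 (1.21, adjusted p = 4.0e-07). FAS was at 90.9, 71.2 and 46.3 with TSZ+Nec-1s, against 9.9, 30.5 and 23.5 with DMSO, where the spread among the TSZ+Nec-1s libraries was wide (1.83 ± 0.46, adjusted p = 0.020), and did not pass without DMSO library a (adjusted p = 0.118) or without TSZ+Nec-1s library a (0.0740) or b (0.0557).

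NF-κB subunits and IκB proteins were higher in 9 of 15 and lower in none, and their median log2 fold change was 1.04. NFKB2, the precursor of the p52 subunit, was at 3626, 3359 and 3523 with TSZ+Nec-1s, against 259, 223 and 282 with DMSO (3.78 ± 0.13, adjusted p = 1.3e-09). Its partner RELB was at 1550, 1351 and 1387 with TSZ+Nec-1s, against 119.8, 77.8 and 139 with DMSO (3.70 ± 0.22, adjusted p = 1.7e-07). NFKBIA was at 1694, 1742 and 1508 with TSZ+Nec-1s, against 252, 185 and 214 with DMSO (2.93 ± 0.13, adjusted p = 1.6e-08). The rises included transcripts of members of both arms, the canonical inhibitors NFKBIA and NFKBIE (3.50) and the non-canonical pair NFKB2 and RELB. TNFα alone also raised 9 of the 15 over DMSO, and which arm raised these transcripts was not tested. NFKB1 (1.44), BCL3 (1.98) and RELA (0.47), chosen after their values were seen, rose less, and the rise of RELA did not pass without DMSO library a (adjusted p = 0.0714) or without TSZ+Nec-1s library a, b or c (0.0857, 0.105 and 0.0954).

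The list of A20, the linear ubiquitin ligase complex LUBAC and related regulators rose in 7 of 12, with none lower. TNFAIP3, which encodes the ubiquitin-editing enzyme A20, was at 1053, 1036 and 1056 with TSZ+Nec-1s, against 24.3, 22.1 and 16 with DMSO (5.63 ± 0.20, adjusted p = 1.7e-09). TNIP1, an adaptor of A20, was at 4931, 5015 and 4983 with TSZ+Nec-1s, against 1048, 758 and 1071 with DMSO (2.39 ± 0.13, adjusted p = 7.3e-08), and the deubiquitinase gene CYLD rose by 1.07 on the log2 scale. TNFAIP2, an abundant TNFα-induced transcript that is also on this list, was at 11175, 11353 and 10768 with TSZ+Nec-1s, against 1350, 1110 and 1345 with DMSO (3.13 ± 0.12, adjusted p = 3.5e-09).

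Among TRAFs, IAPs and NIK, 6 of 16 rose and 1 fell (7 and 2 after GC removal), and the genes of the SM-164 targets cIAP2 and cIAP1 were among the rises, while that of its target XIAP was not. BIRC3, which encodes cIAP2, was at 3339, 3127 and 3210 with TSZ+Nec-1s, against 45.9, 138 and 56.7 with DMSO (5.51 ± 0.35, adjusted p = 3.5e-07). BIRC2, which encodes cIAP1, was at 759.9, 657 and 702 with TSZ+Nec-1s, against 217, 496 and 174 with DMSO (1.41 ± 0.33, adjusted p = 0.014). In both genes DMSO library b was the highest DMSO library, and BIRC2 did not pass without DMSO library a or c (adjusted p = 0.0805 and 0.0615) or without TSZ+Nec-1s library a (0.0566). XIAP was at 575, 561 and 560.3 with TSZ+Nec-1s and 484, 681 and 444 with DMSO and did not pass (adjusted p = 0.74). TRAF1, a TRAF induced by NF-κB, was at 176, 169 and 168 with TSZ+Nec-1s, against 7.2, 4.2 and 5.34 with DMSO (4.84 ± 0.26, adjusted p = 7.3e-08). TRAF1 was measured only through its level with TSZ+Nec-1s, so it could hardly have come out lower. MAP3K14, which encodes NIK, rose by 0.67 ± 0.13 on the log2 scale (adjusted p = 0.0045) and TRAF3, the adaptor that holds NIK in check, by 0.67 ± 0.10 (adjusted p = 0.00062).

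Of 13 measured members of the necroptosis core and death receptor complex 2 rose, CFLAR and TICAM1 (15.4%, against 7.07% of all genes tested), and none fell, while the count was 3 higher after GC removal and 6 higher and 1 lower without DMSO library b. RIPK1 was at 458, 521 and 516 with TSZ+Nec-1s, against 539, 512 and 500.2 with DMSO (-0.06 ± 0.11, adjusted p = 0.78). RIPK3 was at 80.7, 87.7 and 77.5 with TSZ+Nec-1s, against 98.1, 74.6 and 105 with DMSO (-0.16 ± 0.17, adjusted p = 0.59). MLKL was at 352, 452 and 389 with TSZ+Nec-1s, against 405, 336 and 403 with DMSO (0.05 ± 0.12, adjusted p = 0.82). For these 3 genes the libraries of the groups overlapped, and the standard errors leave room for small changes in either direction. CASP8, the protease that cuts RIPK1, was at 455, 471 and 520.1 with TSZ+Nec-1s, against 415, 405 and 329 with DMSO (0.33 ± 0.11, adjusted p = 0.071), and it passed without DMSO library b (adjusted p = 0.0287). CFLAR, which encodes the caspase-8 regulator cFLIP, was at 1067, 995 and 1006 with TSZ+Nec-1s, against 475, 513 and 465 with DMSO (1.08 ± 0.09, adjusted p = 3.3e-06). In the BCL2 family 4 of 16 rose (7 after GC removal) and none fell, among them the survival gene MCL1 (1.09) and the death-promoting genes BBC3 (1.76) and BID (0.62).

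**Figure D2:**
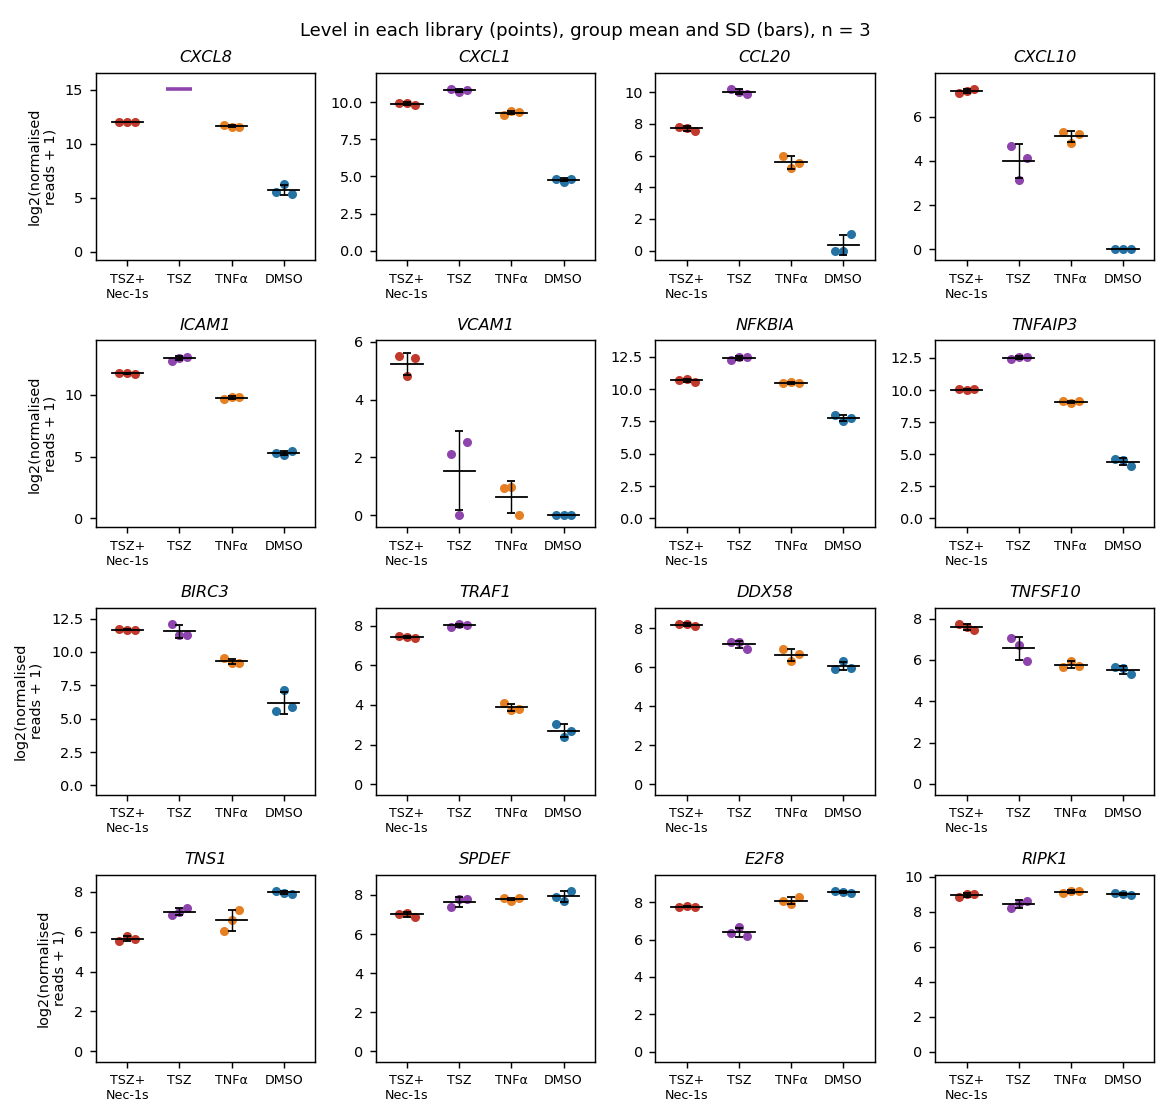
Level of 16 genes in each library on the log2(normalised reads + 1) scale, with points for libraries a, b and c from left to right, a bar for the group mean and whiskers for the SD over n = 3. For CXCL8 with TSZ only the authors' mean is drawn, as a line. The TSZ+Nec-1s libraries lie above all DMSO libraries from CXCL8 to TNFSF10, below them for TNS1, SPDEF and E2F8, and overlap them for RIPK1. Of all genes tested, 14.1% had all TSZ+Nec-1s libraries above all DMSO libraries and 15.3% had them all below.

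Adhesion molecules and integrins were higher in 12 of 19 and lower in none, against 15 higher and 1 lower without DMSO library b. ICAM1, the ligand by which leukocytes bind to epithelium and endothelium through LFA-1, lies at chr19:10271093-10286615 in the GENCODE annotation of hg38 and was at 3543, 3475 and 3378 with TSZ+Nec-1s, against 38.7, 33.6 and 43.8 with DMSO (6.47 ± 0.18, adjusted p = 4.0e-10). VCAM1, the ligand of the integrin VLA-4, had no reads in any DMSO library and was at 44.3, 26.9 and 42.3 with TSZ+Nec-1s, at least 37.8-fold higher. ICAM4, which lies beside ICAM1 on chromosome 19 and was chosen after its values were seen, had 82 reads with TSZ+Nec-1s and 3 with DMSO, a ratio of 24 with a 95% counting interval of 7.94 to 119. VCAM1 and ICAM4 were measured only through their level with TSZ+Nec-1s, so they could hardly have come out lower. LAMA3, a laminin chain of the epithelial basement membrane, rose by 1.53 ± 0.10 on the log2 scale.

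Interferon-stimulated genes rose in 23 of 34 and fell in none (1 fell without DMSO library b, after GC removal or when scaled to total reads), with a median log2 fold change of 0.95. GBP4, a guanylate-binding protein of the interferon-γ response, was at 72, 59.9 and 54.3 with TSZ+Nec-1s, against 1.8, 1.05 and 2.14 with DMSO (4.88 ± 0.36, adjusted p = 1.2e-06). GBP4 was measured only through its level with TSZ+Nec-1s, so it could hardly have come out lower. DDX58, which encodes the RNA sensor RIG-I, was at 302, 296 and 279 with TSZ+Nec-1s, against 58.5, 78.8 and 62 with DMSO (2.15 ± 0.18, adjusted p = 3.5e-06). IFIH1, which encodes the related sensor MDA5 and was chosen after its values were seen, was at 334, 297 and 267 with TSZ+Nec-1s, against 45.9, 76.7 and 47 with DMSO (2.44 ± 0.24, adjusted p = 1.7e-05). PARP14 (1.43) and OAS3 (1.18) were among the rises with the smallest p. The list did not move as a block. ISG15, a ubiquitin-like protein and a common marker of type I interferon, was at 701, 676 and 628 with TSZ+Nec-1s, against 565, 375 and 741 with DMSO (adjusted p = 0.33). ISG15 was chosen after its values were seen and passed after GC removal (adjusted p = 0.0151).

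Receptors and regulators of interferon signalling rose in 11 of 26, with 1 lower, and the count of rises was 18 after GC removal. IFNGR1, a chain of the interferon-γ receptor, was at 4163, 3798 and 4178 with TSZ+Nec-1s, against 721, 1130 and 695 with DMSO (2.29 ± 0.20, adjusted p = 5.0e-06). IFNGR2 rose by 1.99 ± 0.10 and IFNAR2, a chain of the type I receptor, by 2.37 ± 0.15 on the log2 scale. IRF1, a transcription factor induced by NF-κB, was at 1326, 1429 and 1307 with TSZ+Nec-1s, against 498, 414 and 533 with DMSO (1.5 ± 0.12, adjusted p = 2.5e-06). The member that fell was STAT5B, at a log2 fold change of -0.54 (adjusted p = 0.026), which did not pass without any 1 library of the comparison other than DMSO library b (adjusted p = 0.0505 to 0.122).

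The list of MHC class I antigen presentation, which also holds CD74 of MHC class II, was higher in 18 of 21 genes, with none lower. TAP1, a chain of the transporter that brings peptides into the endoplasmic reticulum, was at 642, 574 and 562 with TSZ+Nec-1s, against 68.4, 56.8 and 69.5 with DMSO (3.18 ± 0.16, adjusted p = 4.5e-08). TAPBP, which encodes tapasin, rose by 1.73 ± 0.13 on the log2 scale, and B2M, the light chain, by 0.63 ± 0.10. HLA-B, chosen after its values were seen, was at 422, 405 and 407 with TSZ+Nec-1s, against 195, 159.8 and 220.2 with DMSO (1.11 ± 0.14, adjusted p = 0.00017). Reads of the HLA genes can be split between near-identical copies, and reads from TAP1 and the immunoproteasome gene PSMB9, which overlap on opposite strands, cannot be told apart without strand, so these single values are uncertain. UBD, a ubiquitin-like protein induced by TNFα and interferon-γ, was at 157, 146 and 177 with TSZ+Nec-1s and had no reads in any DMSO library, at least 160.1-fold higher. UBD was measured only through its level with TSZ+Nec-1s, so it could hardly have come out lower. CD74, the invariant chain of MHC class II, was at 129, 136 and 109 with TSZ+Nec-1s, against 24.3, 18.9 and 20.3 with DMSO (2.53 ± 0.24, adjusted p = 1.2e-05).

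Genes of epithelial defence rose in 8 of 16, with none lower, against 9 higher and 1 lower without DMSO library b. PI3, which encodes the elastase inhibitor elafin, was at 615, 701 and 609.6 with TSZ+Nec-1s, against 35.1, 7.36 and 11.8 with DMSO (5.37 ± 0.35, adjusted p = 4.0e-07). CFB, complement factor B, was at 151, 119 and 149 with TSZ+Nec-1s, against 18.9, 13.7 and 22.4 with DMSO (2.91 ± 0.23, adjusted p = 2.7e-06). SOD2, the mitochondrial superoxide dismutase and a classic TNFα target, was at 992, 869 and 913 with TSZ+Nec-1s, against 204, 218 and 211 with DMSO (2.13 ± 0.10, adjusted p = 2.8e-08). LCN2, an iron-binding defence protein chosen after its values were seen, did not pass at 1098, 1145 and 1144 with TSZ+Nec-1s and 977, 661 and 997 with DMSO (adjusted p = 0.11).

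Immediate early genes and AP-1 subunits rose in 14 of 22 with none lower and a median log2 fold change of 0.63. FOSL1, an AP-1 subunit, was at 1948, 1932 and 1941 with TSZ+Nec-1s, against 759.9, 617 and 868 with DMSO (1.39 ± 0.13, adjusted p = 1.1e-05). JUNB was at 1850, 1684 and 1754 with TSZ+Nec-1s, against 661, 564 and 786 with DMSO (1.41 ± 0.16, adjusted p = 7.6e-05). KLF4, a transcription factor of differentiated epithelium, was at 274, 270.0 and 340.0 with TSZ+Nec-1s, against 123, 141 and 123 with DMSO (1.18 ± 0.13, adjusted p = 6.2e-05). FOS, chosen after its values were seen, was at 255, 234 and 212 with TSZ+Nec-1s, against 258, 185 and 282 with DMSO, and did not pass (adjusted p = 0.94). MAP kinase phosphatases and feedback inhibitors rose in 6 of 15, led by DUSP16 (1.37 ± 0.09) and DUSP5 (1.53 ± 0.13), and SPRY1, an inhibitor of receptor tyrosine kinase signalling, fell (-0.62 ± 0.14, adjusted p = 0.011). The fall of SPRY1 did not pass without DMSO library a (adjusted p = 0.0612) or TSZ+Nec-1s library b (0.0533).

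Genes of tissue remodelling also changed, with 8 of 13 matrix proteases and plasminogen genes higher and 2 lower. MMP7, the matrilysin of epithelial cells, was at 7220, 7221 and 7239 with TSZ+Nec-1s, against 977, 1048 and 941 with DMSO (2.87 ± 0.10, adjusted p = 1.2e-09). PLAU, which encodes urokinase, was at 80.7, 79 and 75.5 with TSZ+Nec-1s, against 27, 10.5 and 18.2 with DMSO (2.12 ± 0.30, adjusted p = 0.00042). MMP24 (-1.01) and the protease inhibitor TIMP2 (-0.60) fell, TIMP2 not passing without TSZ+Nec-1s library a (adjusted p = 0.0598). Keratins and cornified envelope genes rose in 6 of 10 (1 fell without DMSO library b or after GC removal), KRT20 of differentiated colonocytes by 1.15 ± 0.07 and KRT17, a keratin of stressed epithelium, by 1.64 ± 0.20. The secreted mucins MUC5AC (1.86) and MUC2 (2.75) rose, whereas SPDEF, the transcription factor of goblet cells, was at 130.5, 136 and 116 with TSZ+Nec-1s, against 238, 204 and 296 with DMSO (-0.93 ± 0.17, adjusted p = 0.0025).

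Single genes of other groups were among the strong rises. PTGS2, which encodes the prostaglandin-forming enzyme COX-2, was at 397, 402 and 419.5 with TSZ+Nec-1s, against 19.8, 64.1 and 31 with DMSO (3.58 ± 0.29, adjusted p = 2.8e-06). CDKN1A, which encodes the cyclin-dependent kinase inhibitor p21, was at 719.6, 695 and 761 with TSZ+Nec-1s, against 102, 83 and 119 with DMSO (2.85 ± 0.17, adjusted p = 1.4e-07). Of 24 measured p53 targets 4 rose, CDKN1A included, and 2 fell, against 8 and 3 without DMSO library b. Among NRF2 antioxidant targets 9 of 26 rose and none fell (11 and 1 without DMSO library b, 13 and 1 after GC removal), SQSTM1, the autophagy receptor p62, being at 12044, 11962 and 11824 with TSZ+Nec-1s, against 3831, 3089 and 4254 with DMSO (1.69 ± 0.11, adjusted p = 2.5e-06). OPTN, another autophagy receptor that binds ubiquitin, was at 512, 433 and 508 with TSZ+Nec-1s, against 91.8, 82 and 100.5 with DMSO (2.40 ± 0.13, adjusted p = 9.7e-08).

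**Figure D3:**
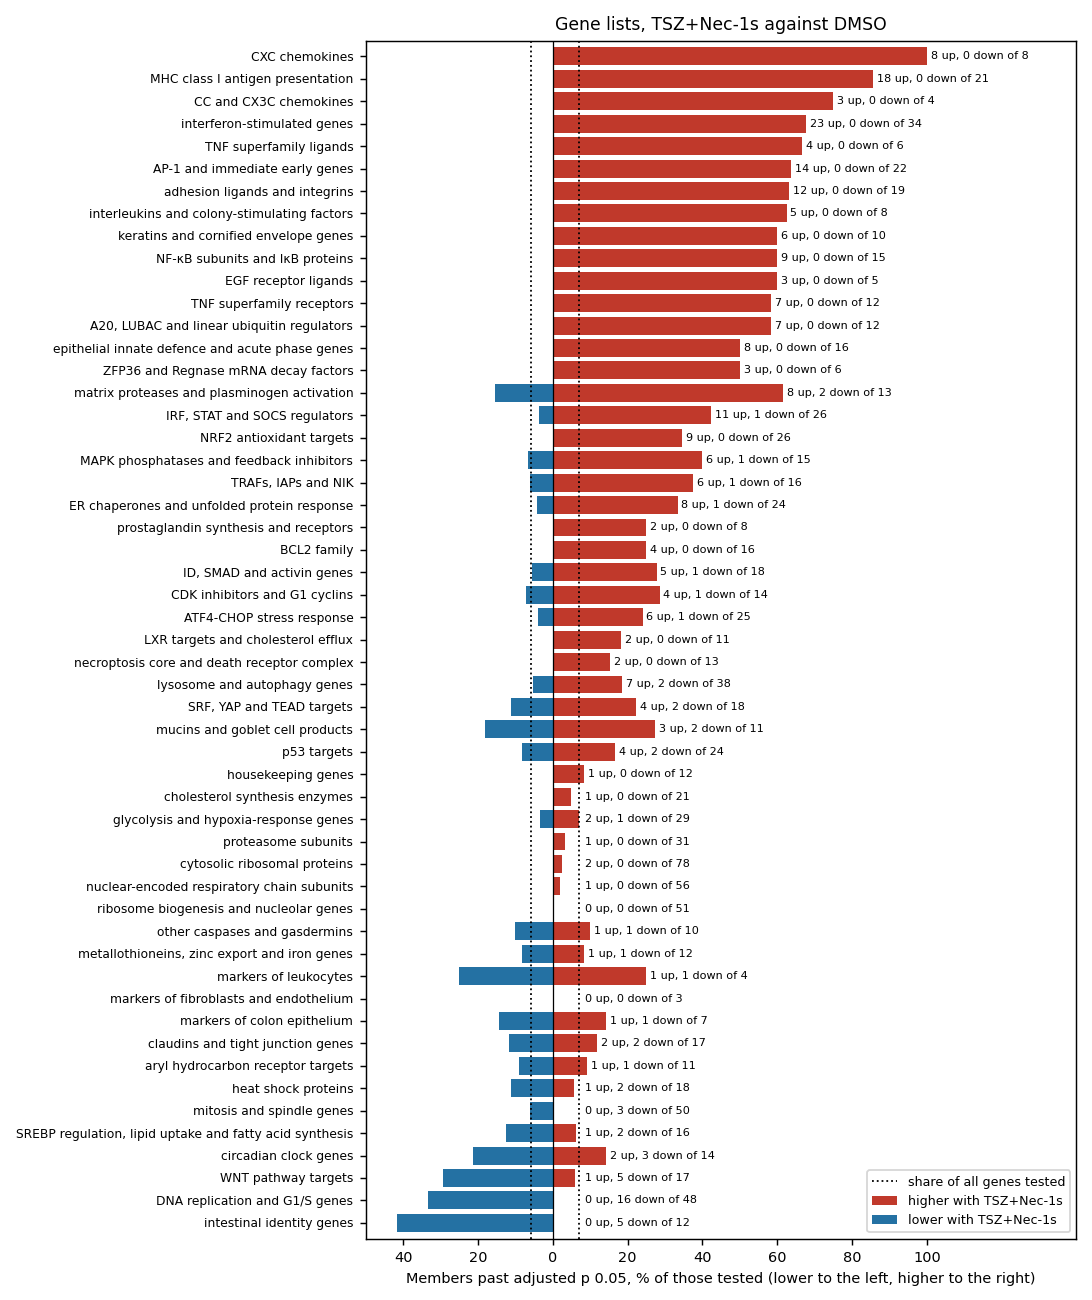
Share of the tested members of each gene list that were past an adjusted p of 0.05, with members lower with TSZ+Nec-1s drawn to the left in blue and members higher drawn to the right in red, and dotted lines at 5.79% lower and 7.07% higher over all genes tested. The bars for CXC chemokines (8 of 8) and the MHC class I list (18 of 21) reach farthest to the right, and those for intestinal identity genes (5 of 12) and DNA replication genes (16 of 48) farthest to the left. Members measured only through their level with TSZ+Nec-1s, such as CXCL10 and CXCL11, could hardly be lower.

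The falls were smaller and spread over many functions. TNS1, which encodes the focal adhesion protein tensin 1, was at 45.9, 53.8 and 49.3 with TSZ+Nec-1s, against 266, 249 and 239 with DMSO (-2.34 ± 0.22, adjusted p = 1.2e-05). F2R, which encodes the thrombin receptor PAR1, was at 118, 145 and 147 with TSZ+Nec-1s, against 434, 562 and 464 with DMSO (-1.83 ± 0.15, adjusted p = 2.7e-06). BDNF, a neurotrophin, was at 28.5, 21.7 and 34.2 with TSZ+Nec-1s, against 119, 145 and 112 with DMSO (-2.16 ± 0.21, adjusted p = 1.3e-05). No DMSO library was as low as any TSZ+Nec-1s library for these genes, which held for 15.3% of all genes tested. The other 7 of the 10 largest falls with a mean of at least 50 were PRR15L (-2.30), RBBP8NL (-2.07), PPFIBP2 (-1.78), ARHGAP33 (-1.69), ANKS4B (-1.62), a microvillus protein of the intestinal brush border, DEGS2 (-1.61), an enzyme of phytoceramide synthesis, and SOSTDC1 (-1.60), a secreted antagonist of BMP and WNT.

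Intestinal identity genes fell in 5 of 12 with none higher, a median log2 fold change of -0.31, whereas 6 were lower and 3 higher without DMSO library b and 6 lower and 1 higher after GC removal. VIL1, which encodes the microvillus protein villin, was at 635, 649 and 633 with TSZ+Nec-1s, against 1100, 992 and 1224 with DMSO (-0.78 ± 0.11, adjusted p = 0.00029). ELF3, an epithelial transcription factor, was at 641, 639.8 and 622 with TSZ+Nec-1s, against 1161, 877 and 1069 with DMSO (-0.70 ± 0.13, adjusted p = 0.0027). ASCL2, a stem cell factor driven by WNT, was at low levels of 5.54, 6.95 and 7.04 with TSZ+Nec-1s, against 19.8, 26.3 and 40.6 with DMSO (-2.02 ± 0.37, adjusted p = 0.0031). ASCL2 was measured only through its level with DMSO, so it could hardly have come out higher. HNF4A (-0.46, adjusted p = 0.050), chosen after its values were seen, lay close to the threshold and did not pass without any 1 library other than DMSO library b (adjusted p = 0.1 to 0.202). WNT pathway targets fell in 5 of 17, WNT11 (-1.43), ASCL2 and MYB (-0.54) among them, and DKK1, a secreted WNT inhibitor, rose (0.61). MYB did not pass without TSZ+Nec-1s library a (adjusted p = 0.0535), and DKK1 not without any 1 library other than DMSO library b (0.0521 to 0.0899). AXIN2, a feedback inhibitor of the WNT pathway chosen after its values were seen, was at 859, 860.4 and 946 with TSZ+Nec-1s, against 939, 902 and 1030 with DMSO (adjusted p = 0.51).

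DNA replication and G1/S genes fell in 16 of 48 and rose in none, with a median log2 fold change of -0.26. GINS1, a subunit of the replicative helicase, was at 462, 462 and 472 with TSZ+Nec-1s, against 756, 739 and 721 with DMSO (-0.67 ± 0.08, adjusted p = 0.00013). E2F8, a repressor among the E2F factors, was at 218, 222 and 215 with TSZ+Nec-1s, against 394, 380.5 and 369 with DMSO (-0.80 ± 0.12, adjusted p = 0.00070). CHAF1B, a subunit of the chromatin assembly factor CAF-1, was at 287, 296 and 274 with TSZ+Nec-1s, against 496, 391 and 469 with DMSO (-0.66 ± 0.12, adjusted p = 0.0025). These falls were less than 2-fold but larger than the spread among libraries. The count was 27 of 48 after GC removal, 29 with 1 higher without DMSO library b, and 24 when scaled to total reads. Mitosis and spindle genes had 3 falls of 50, NCAPH (-0.45), FOXM1 (-0.50) and NCAPD2 (-0.39), and no rise. That share of 6% lower is close to the 5.79% of all genes tested, so no fall of this list as a group is shown. All 3 calls were lost without DMSO library a (adjusted p = 0.0520, 0.0968 and 0.12), and the counts differed between settings, with 1 higher and 10 lower after GC removal and 9 higher and 10 lower without DMSO library b.

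**Figure D4:**
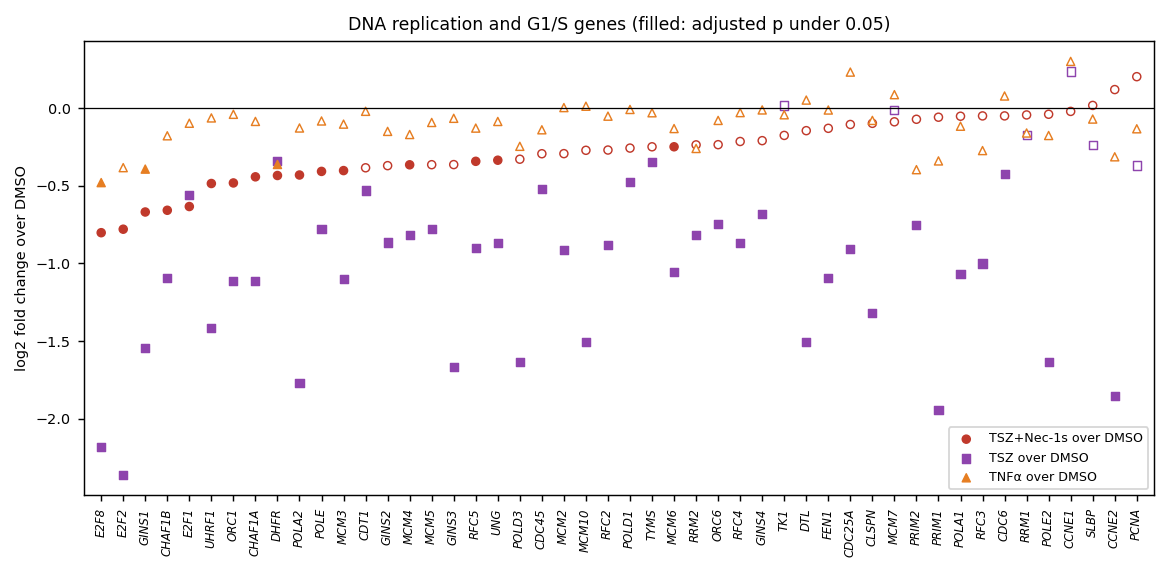
Log2 fold change over DMSO of the 48 DNA replication and G1/S genes for TSZ+Nec-1s (red circles), TSZ (purple squares) and TNFα (orange triangles), with filled symbols for an adjusted p under 0.05 and genes ordered by their TSZ+Nec-1s value. With TSZ+Nec-1s 16 genes fell, with TSZ 42 fell and with TNFα 3 fell, all 3 contrasts using the same DMSO libraries. Of all genes tested, 5.79% fell with TSZ+Nec-1s, 24.5% with TSZ and 1.08% with TNFα. Set directly against TNFα, 1 of the 48 was lower with TSZ+Nec-1s and none was higher, with a median log2 fold change of -0.21.

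Counts for several groups of housekeeping character depended on DMSO library b and on GC removal, against a background of 7.07% higher and 5.79% lower with all libraries. Cholesterol synthesis enzymes had 1 rise and no fall among 21, but 6 rises and 6 falls without DMSO library b and 3 rises and 5 falls after GC removal. Proteasome subunits had 1 rise among 31, against 6 without DMSO library b and 5 after GC removal. Nuclear-encoded respiratory chain subunits had 1 rise among 56, against 2 rises and 7 falls without DMSO library b and 2 rises after GC removal. Cytosolic ribosomal proteins had 2 rises among 78, against 4 without DMSO library b and 20 after GC removal, and ribosome biogenesis genes had no rise or fall among 51, against 15 rises and 1 fall without DMSO library b and 14 rises after GC removal. INSIG1, the sterol sensor chosen after its values were seen, was at 562, 512 and 516 with TSZ+Nec-1s, against 483, 556 and 518 with DMSO (0.04 ± 0.11, adjusted p = 0.87). Of the ATF4-CHOP stress genes 6 of 25 rose and 1 fell, against 8 and 5 without DMSO library b and 7 and 4 after GC removal. DDIT3, which encodes CHOP and was chosen after its values were seen, was at 111, 111 and 131 with TSZ+Nec-1s, against 119, 83 and 144 with DMSO (0.05 ± 0.19, adjusted p = 0.89). The ER chaperone HSPA5 rose by 0.61 ± 0.07 on the log2 scale, and ER chaperone and unfolded protein response genes had 8 rises and 1 fall of 24, against 17 rises and 1 fall after GC removal and 14 and 1 without DMSO library b.

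TSZ+Nec-1s was set directly against TNFα alone to ask where the presence of SM-164, zVAD and Nec-1s went beyond TNFα. Here 128 genes were higher and 30 lower with TSZ+Nec-1s, 1.09% and 0.256% of the 11713 genes tested (1.35% in either direction). Set against DMSO, TNFα alone gave 364 genes higher and 127 lower, 3.11% and 1.08%, in libraries of similar depth. TRAF1 was at 176, 169 and 168 with TSZ+Nec-1s, against 15.9, 12.5 and 13 with TNFα (3.59 ± 0.20, adjusted p = 1.4e-06). BIRC3 was at 3339, 3127 and 3210 with TSZ+Nec-1s, against 732, 568 and 580.5 with TNFα (2.37 ± 0.24, adjusted p = 0.00042). ICAM1 was at 3543, 3475 and 3378 with TSZ+Nec-1s, against 804, 917 and 909.8 with TNFα (1.99 ± 0.10, adjusted p = 8.7e-07). For these genes the TNFα level lay between the levels with TSZ+Nec-1s and DMSO. The largest difference on the log2 scale among the genes named was that of VCAM1, at 44.3, 26.9 and 42.3 with TSZ+Nec-1s, against 0.934, 0.962 and 0 with TNFα (5.22 ± 0.62, adjusted p = 0.00080), a value that rests on 2 reads with TNFα.

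Other NF-κB targets did not pass in this contrast. NFKBIA was at 1694, 1742 and 1508 with TSZ+Nec-1s, against 1393, 1477 and 1417 with TNFα (0.20 ± 0.11, adjusted p = 0.32). CXCL8 was at 4074, 4018 and 4070 with TSZ+Nec-1s, against 3369, 2995 and 2958 with TNFα (0.39 ± 0.11, adjusted p = 0.15), and IL32 at 454, 471 and 514 with TSZ+Nec-1s, against 358, 419 and 366 with TNFα (0.33 ± 0.13, adjusted p = 0.23). Likewise RELB differed by 0.33 ± 0.16 on the log2 scale (adjusted p = 0.30), whereas NFKB2 was higher by 0.91 ± 0.11 (adjusted p = 0.00080). By list, 4 of 8 CXC chemokines, 3 of 4 CC and CX3C chemokines, 6 of 34 interferon-stimulated genes and 2 of 21 genes of the MHC class I list, CD74 among them, were higher with TSZ+Nec-1s than with TNFα. None of the 22 AP-1 genes or the 12 TNF superfamily receptors passed in either direction. Each of TRAF1, BIRC3, ICAM1, VCAM1, NFKB2 and CEMIP passed when any 1 of the 12 libraries was left out (adjusted p up to 0.024). Of the 30 genes that were lower, CEMIP, which encodes a hyaluronan-degrading protein and was chosen after its values were seen, was at 317, 319 and 322 with TSZ+Nec-1s, against 602, 630.3 and 666 with TNFα (-0.98 ± 0.14, adjusted p = 0.0028). Leaving out any 1 TSZ+Nec-1s or TNFα library brought the counts to 48 to 64 higher and 2 to 4 lower.

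Against TSZ, where RIPK1 kinase activity was not inhibited, 2334 genes were higher and 2557 lower with TSZ+Nec-1s, 19.9% and 21.9% of the 11700 genes tested. TSZ itself, set against DMSO, gave 2952 genes higher and 2864 lower, 25.2% and 24.5% (49.7% in either direction). The split of this contrast depends on the scaling, with 4958 higher and 1299 lower when scaled to total reads. TNFAIP3 was at 1053, 1036 and 1056 with TSZ+Nec-1s, against 5368, 6232 and 6135 with TSZ (-2.49 ± 0.09, adjusted p = 4.9e-10). CSF1 was at 185, 151 and 156 with TSZ+Nec-1s, against 1155, 1419 and 1497 with TSZ (-3.04 ± 0.13, adjusted p = 2.1e-09). CXCL8 averaged 4054 ± 31.4 with TSZ+Nec-1s (SD, n = 3), against the authors' mean of 32893 with TSZ, which was not solved per library and not tested. All 22 AP-1 and immediate early genes were lower with TSZ+Nec-1s than with TSZ. ATF3, a stress-induced member chosen after its values were seen, was at 70.4, 52.1 and 47.3 with TSZ+Nec-1s, against 2775, 3187 and 3317 with TSZ (-5.76 ± 0.17, adjusted p = 1.0e-10). DUSP5 was at 319, 303 and 330.0 with TSZ+Nec-1s, against 5358, 5707 and 5962 with TSZ (-4.16 ± 0.10, adjusted p = 2.2e-11).

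Cholesterol synthesis enzymes and replication genes were also apart in this contrast, with 18 of 21 cholesterol synthesis enzymes lower with TSZ+Nec-1s than with TSZ and 37 of 48 replication genes higher. INSIG1 was at 562, 512 and 516 with TSZ+Nec-1s, against 11744, 10987 and 10969 with TSZ (-4.40 ± 0.10, adjusted p = 8.5e-12). GINS1 was at 462, 462 and 472 with TSZ+Nec-1s, against 258, 256 and 245 with TSZ (0.87 ± 0.09, adjusted p = 1.1e-05). Some NF-κB targets stood at levels with TSZ+Nec-1s that could not be told from those with TSZ. BIRC3 was at 3339, 3127 and 3210 with TSZ+Nec-1s, against 4436, 2423 and 2527 with TSZ (0.10 ± 0.23, adjusted p = 0.75), and MMP7 at 7220, 7221 and 7239 with TSZ+Nec-1s, against 8043, 6414 and 7191 with TSZ (0.01 ± 0.09, adjusted p = 0.95). For BIRC3, TSZ library a, which stood apart along GC content, lay above all TSZ+Nec-1s libraries. TSZ libraries b and c lay below them, so equal levels of BIRC3 are not shown.

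A set of 22 genes was higher with TSZ+Nec-1s than in each of the 3 other groups, a count over tests that share the TSZ+Nec-1s libraries. It was 9 to 28 when 1 library other than DMSO library b was left out and 170 without DMSO library b, and 9 genes were in the set in all 12 of these cases, namely CXCL10, DDX58, GBP4, PARP14, SLFN5, TNFAIP2, TNFSF10, UBD and VCAM1, SLFN5 being chosen after its values were seen. Of these, CXCL10, GBP4, UBD and VCAM1 were measured only through their level with TSZ+Nec-1s, so they could hardly have been lower than with DMSO. CXCL10 was at 132, 143 and 149.9 with TSZ+Nec-1s, against 24.4, 7.9 and 16.7 with TSZ and 38.3, 26.9 and 36 with TNFα. GBP4 was at 72, 59.9 and 54.3 with TSZ+Nec-1s, against 8.87, 11.3 and 13.1 with TSZ and 13.1, 10.6 and 10 with TNFα. DDX58 was at 302, 296 and 279 with TSZ+Nec-1s, against 156, 155 and 123 with TSZ and 121, 78.9 and 102 with TNFα. In these genes the TSZ+Nec-1s libraries were above every library of the other groups. The set was chosen by these same differences, so this order adds no support. The share of all genes tested with this order was not counted. TNFSF10 was at 216, 193 and 176 with TSZ+Nec-1s, against 131, 104 and 60.7 with TSZ and 49.5, 61.6 and 51 with TNFα. UBD was at 157, 146 and 177 with TSZ+Nec-1s, against 59.9, 44 and 53.6 with TSZ and 31.8, 51 and 56 with TNFα. SLFN5, a gene of the interferon-induced Schlafen family, was at 282, 313 and 334 with TSZ+Nec-1s, against 177, 235 and 177 with TSZ and 171, 108 and 135 with TNFα. The remaining members included the kinase gene MAP3K14, at 466, 501 and 475 with TSZ+Nec-1s, against 301, 319 and 269 with TSZ and 267, 292 and 297 with TNFα. Of the 22, 9 are on no list used here, 4 are on that of interferon-stimulated genes, which holds 34 of the 11719 genes tested, and 9 other lists have 1 each.

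Genes lower with TSZ+Nec-1s than in each of the 3 other groups numbered 9, but only CEMIP was among them whichever of the 12 libraries was left out, and the count was 74 without DMSO library b and 1 to 18 without any other. CEMIP was at 317, 319 and 322 with TSZ+Nec-1s, against 759, 981 and 1121 with TSZ, 602, 630.3 and 666 with TNFα and 655, 578 and 596 with DMSO. SPDEF, which was in the set with all libraries, stood at 163, 225 and 219 with TSZ and 227, 208 and 228 with TNFα, above its TSZ+Nec-1s libraries given earlier.

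**Figure D5:**
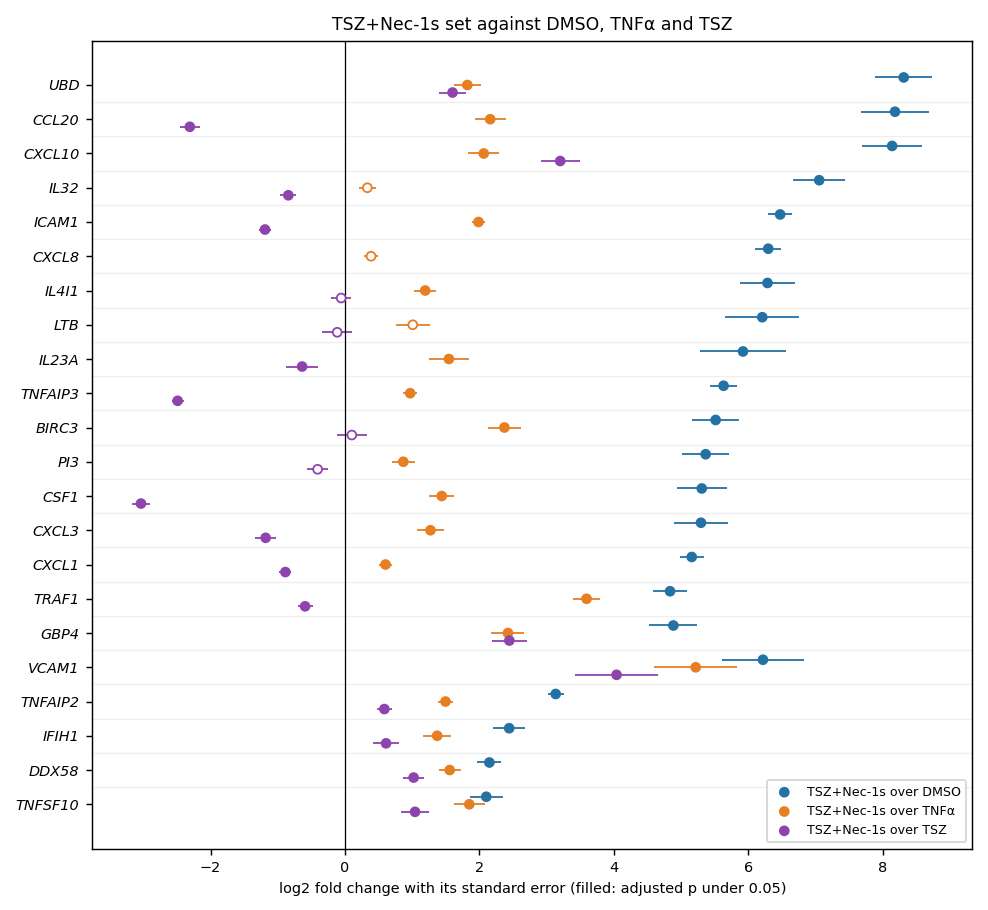
Log2 fold change of TSZ+Nec-1s over DMSO (blue), over TNFα (orange) and over TSZ (purple) for 22 genes, with bars for the standard error and filled symbols for an adjusted p under 0.05. All blue symbols are to the right of 0, whereas the purple ones lie to the left for CCL20, CSF1 and TNFAIP3 and to the right for CXCL10, VCAM1, GBP4 and TNFSF10. CXCL8 has no purple symbol because its TSZ libraries were not solved, and the blue values of UBD, CXCL10 and VCAM1 depend on the prior count because DMSO had no reads.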

How the data were processed

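PolyA RNA of HT-29 cells was sequenced in 12 libraries of 4 groups. The authors aligned the reads to hg38 with STAR, counted them per gene with HTSeq without strand and scaled them with DESeq, and they deposited for each pair of groups the group means, a signal in normalised reads, with the fold changes, log2 fold changes and p-values of their own tests, which were not used. From the 3 tables of each group the whole read counts per library were recovered, which solved 15725 of 15733 genes with TSZ+Nec-1s and 15847 of 15850 with DMSO. The unsolved, abundant genes hold 3.92% and 1.97% of the scaled reads. On simulated means with known reads the recovery gave 0 wrong genes.

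The recovered counts were fitted with limma 3.58.1 in R 4.3.3 (scaled by the authors' recovered size factors, precision weights, 1 model over the 4 groups with 8 residual degrees of freedom). The genes were those that averaged 10 or more normalised reads over TSZ+Nec-1s and DMSO, also in the contrasts that involve TNFα or TSZ. P-values were Benjamini-Hochberg adjusted over all genes tested. On simulated counts 46%, 80% and 100% of 50 genes each changed 1.5-, 2- and 4-fold were called, with 12 false calls. The simulation gave every gene the same dispersion and no library a GC trend, so these shares need not hold for the real libraries. Counting intervals and floors cover counting error only. Genes were matched to GENCODE v44 by symbol (10907 directly, 623 by another symbol, 197 not).

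The genes and lists were chosen with earlier results of these data known. Genes named were the 15 largest rises and 10 largest falls with a mean of at least 50, up to 4 members of each of 54 lists per direction by lowest p with the highest member that did not pass, and fixed TNF, necroptosis and control genes. Others are said to be chosen after their values were seen. Some genes that the rule names are not reported here. Alternatives were other scalings, filters and thresholds, the 6 libraries alone, limma's trend, GC removal and leaving out each library.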

Additional observations from a re-analysis of the deposited data

How the results depend on the processing

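The main comparison gave 829 genes higher and 679 lower with TSZ+Nec-1s than with DMSO. Scaling to total reads gave 714 and 1290, the 6 libraries alone 592 and 374, removal of each library's GC trend 1749 and 1392, an adjusted p under 0.01 gave 482 and 278, and a fold over 1.5 gave 606 and 415. Leaving out 1 library gave 541 to 2215 higher and 308 to 1696 lower, the upper ends being without DMSO library b. Against TNFα, with 128 higher and 30 lower, GC removal gave 391 and 154, an adjusted p under 0.01 gave 56 and 2, and leaving out 1 library gave 48 to 64 and 2 to 4. The lower count was 55 with total reads, 14 without the filter and 18 with limma's trend. Against TSZ, with 2334 higher and 2557 lower, total reads gave 4958 and 1299, an adjusted p under 0.01 gave 1355 higher, and a fold over 1.5 gave 1634 lower. The set above all 3 other groups held 68 genes and the set below them 42 after GC removal. The causes of these shifts were not tested. Of the 302 genes described or named by the rule, 253 to 296 kept their direction and their side of the threshold in each setting, and none of those called reversed. The filter at a mean of 50 tests fewer of them. List counts without DMSO library b, after GC removal and with total reads were alternatives chosen after seeing the data. No paired analysis was possible because the group means carry no replicate numbers. Depth limits the genes with few or no DMSO reads, whose folds are lower bounds or wide intervals.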
